A study of Zea mays with 18 samples.

Results

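Roots of the maize line zmnrl1-m were compared with roots of the inbred line B73 after 48 h at low nitrate. All seedlings were 10 days old and stood in a Hoagland-type nutrient solution with 0.15 mM nitrate, and the root mRNA of each sample was sequenced. The samples were chosen by their labels, as the 3 zmnrl1-m and the 3 B73 libraries at 0.15 mM, which are 6 of the 18 libraries of the series. The labels call zmnrl1-m a mutant and B73 by its name alone. The other 12 libraries hold zmnrl1-m and B73 roots at 15 mM nitrate for 48 h, and roots of ZmNRL1-OE, labelled as an overexpression line, at either level. The sources used here do not give the allele of zmnrl1-m, its genetic background, the number of independent lines or whether repeats came from separate plantings. The p-values therefore measure the spread between these libraries, which may in part be technical. The deposited count table has 41632 genes. Of these, 27134 had enough counts to be tested, 7861 had counts but too few, and 6637 had none in any library.

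Roots take up nitrate through transporters of high and of low affinity, reduce it to ammonium, and build it into amino acids. When nitrate is scarce, plants raise high-affinity uptake and change root growth, and nitrate itself acts as a signal for many genes. The series title describes ZmNRL1 as a protein with DUF630 and DUF632 domains that acts in the nitrogen stress response of maize. In Arabidopsis, the protein NRG2, which has the same pair of domains, is a regulator of nitrate signalling. The comparison asks how roots of the mutant line differ from B73 when nitrate is scarce. Genes carry numbered identifiers without names in the files, and a RefSeq table of 49888 genes for the later NAM-5.0 assembly matched 0 of these. The transcript level of ZmNRL1, which would check the genotype labels, and lists of named pathway genes or root and shoot markers were not analysed here.

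The libraries differed in depth, more within B73 than within zmnrl1-m, and the genotypes were well apart. Total counts were 31177362 to 34552891 in zmnrl1-m and 21974154 to 35625821 in B73. At least 1 count was seen for 29526 to 29704 genes in zmnrl1-m and for 28431 to 28948 in B73. Across the 27134 genes, log2 levels correlated with r = 0.987 to 0.990 among zmnrl1-m libraries and 0.983 to 0.992 among B73 libraries, and with r = 0.874 to 0.884 between the genotypes. These correlations run over genes, which are no replicates, and only describe the libraries. Levels are given as CPM, the usual unit of counts scaled to library size, here after TMM scaling, which uses a trimmed mean over genes to put libraries on a common scale.

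Differences between zmnrl1-m and B73 at low nitrate were spread over much of the root transcriptome and were nearly balanced in direction. The quasi-likelihood test of edgeR called 12143 genes (44.8% of those tested) at an adjusted p under 0.05. Of these, 5957 (22.0%) were higher in zmnrl1-m and 6186 (22.8%) lower. In 14407 genes (53.1%) the libraries of the genotypes did not overlap, with all 3 zmnrl1-m libraries above all B73 libraries in 7267 (26.8%) and below them in 7140 (26.3%). In bulk roots, a larger or smaller share of a cell type and more or less RNA per cell cannot be told apart.

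Most called differences were small, and a minority were extreme. The median size of a called difference was 0.78 on the log2 scale, against 0.33 over all tested genes, and 7216 of the called genes (59.4%) were less than 2-fold apart. At least 2-fold differences were called in 4927 genes (18.2%), 2253 higher (8.30%) and 2674 lower (9.85%) in zmnrl1-m. The balance between directions varied with size. At 4-fold or more there were 1324 higher and 1214 lower genes, and at 16-fold or more 793 higher and 566 lower. At 64-fold or more there were 475 higher and 366 lower genes, and at 256-fold or more 173 higher and 196 lower. These are fitted folds, and their size is uncertain where a genotype had few or no counts. The genes at least 2-fold apart held 6.33% of all counts in zmnrl1-m and 7.80% in B73. The count of genes at least 2-fold apart was 2754 on log2(FPKM + 1), a scale that understates changes of low genes.

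**Figure D1:**
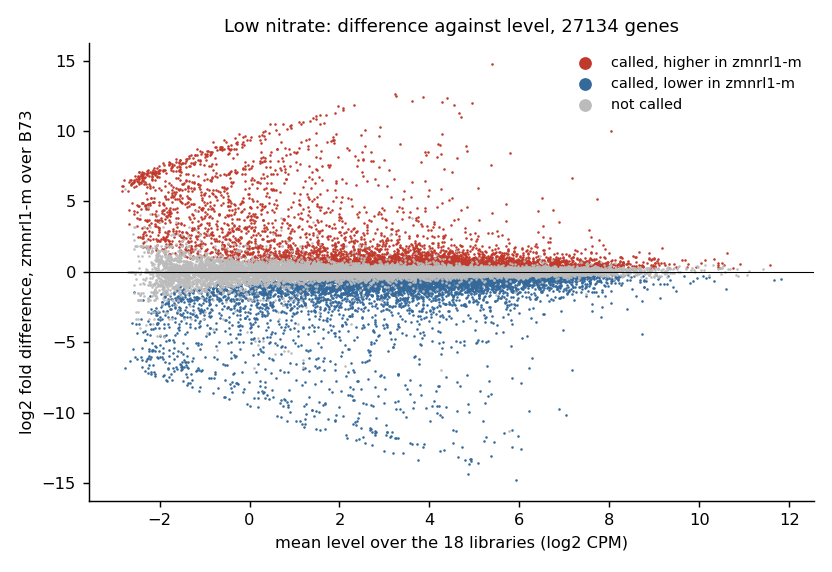
Each point is a gene, placed by its mean level over the 18 libraries (log2 CPM, horizontal) and the log2 fold difference of zmnrl1-m over B73 at low nitrate (vertical). Called genes are red where higher and blue where lower in zmnrl1-m, and the 4927 genes at least 2-fold apart thin out from left to right.

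The share of called genes hardly changed with level, while large differences were concentrated among low genes. When the tested genes were split by mean level into 5 bins of equal size, 45.4% were called in the lowest bin (median 0.729 CPM) and 44.0% in the highest (median 84.6 CPM). Genes at least 2-fold apart made up 40.5% of the lowest bin, then 23.7%, 13.2% and 7.78%, and 5.71% of the highest. Direction also moved with level. The lowest bin had 1228 higher and 968 lower genes at least 2-fold apart, and the highest had 105 higher and 205 lower. The median standard error of a log2 difference was 0.45 in the lowest bin and 0.10 in the highest, so smaller differences could be called among abundant genes. Of the 100 most abundant genes over the 6 libraries, 32 were called higher, 15 called lower and 5 called and at least 2-fold apart. Over all tested genes these shares were 22.0%, 22.8% and 18.2%. With genes limited to those of at least 1 CPM in both genotypes, a restriction chosen after the data had been examined, 9265 of 21992 were called (42.1%), with 4487 higher (20.4%) and 4778 lower (21.7%), and 2189 (9.95%) were at least 2-fold apart.

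Among called genes with at least 1 CPM in both genotypes, at least 5 CPM in 1 and no overlap of libraries, Zm00001d024886 and Zm00001d025016 had the largest rises and Zm00001d051609 and Zm00001d027240 the largest falls. Zm00001d024886 stood at 117, 106 and 178 CPM in zmnrl1-m, against 1.92, 0.691 and 1.50 CPM in B73. Its difference was 6.67 ± 0.35 on the log2 scale (SE), or 102-fold, with an edgeR adjusted p of 1.43e-10. The lowest zmnrl1-m library was far above the highest B73 library.

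Zm00001d025016 stood at 141, 122 and 135 CPM in zmnrl1-m, against 3.76, 3.66 and 3.04 CPM in B73, a log2 difference of 5.25 ± 0.17 (SE; edgeR adjusted p = 4.34e-13). Both genes were also high in ZmNRL1-OE at low nitrate, at 188 ± 16.5 and 115 ± 14.0 CPM (SD, n = 3). Set against the same B73 libraries, ZmNRL1-OE differed by 7.16 ± 0.35 and 5.04 ± 0.17 on the log2 scale (SE). In these genes both zmnrl1-m and ZmNRL1-OE were thus far above B73. At high nitrate Zm00001d024886 stood at 264, 358 and 256 CPM in zmnrl1-m, against 1.92, 0.675 and 1.22 CPM in B73, and its log2 difference was 7.81 ± 0.35 (SE). Zm00001d025016 then stood at 167, 204 and 180 CPM in zmnrl1-m, against 3.13, 1.60 and 2.57 CPM in B73. Its log2 difference changed by -0.98 ± 0.23 between high and low nitrate (SE; edgeR adjusted p = 0.0235), while for Zm00001d024886 the change of -1.14 ± 0.49 was not called (edgeR adjusted p = 0.134).

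The falls named by the same rule, Zm00001d051609 and Zm00001d027240, had another pattern across the lines. Zm00001d051609 stood at 1.13, 1.88 and 1.91 CPM in zmnrl1-m, against 247, 199 and 182 CPM in B73, a log2 difference of -6.98 ± 0.20 (SE; edgeR adjusted p = 1.01e-13). Zm00001d027240 stood at 1.70, 1.55 and 1.91 CPM in zmnrl1-m, against 138, 108 and 114 CPM in B73, a log2 difference of -6.12 ± 0.16 (SE; edgeR adjusted p = 4.27e-14). The genotypes were far apart in each gene, and the zmnrl1-m libraries lay within 1 CPM of each other. At high nitrate Zm00001d051609 stood at 1.56, 1.42 and 1.21 CPM in zmnrl1-m, against 202, 155 and 182 CPM in B73. Zm00001d027240 then stood at 1.93, 1.83 and 1.31 CPM in zmnrl1-m, against 114, 97.9 and 109 CPM in B73. The log2 differences were -6.99 ± 0.21 and -5.96 ± 0.16 (SE), close to those at low nitrate. In ZmNRL1-OE at low nitrate the genes stood at 274 ± 22.4 and 128 ± 5.25 CPM (SD, n = 3). Against the same B73 libraries, that is 0.39 ± 0.15 and 0.09 ± 0.12 on the log2 scale (SE), of which the first was called (edgeR adjusted p = 0.0489) and the second was not (edgeR adjusted p = 0.585).

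**Figure D2:**
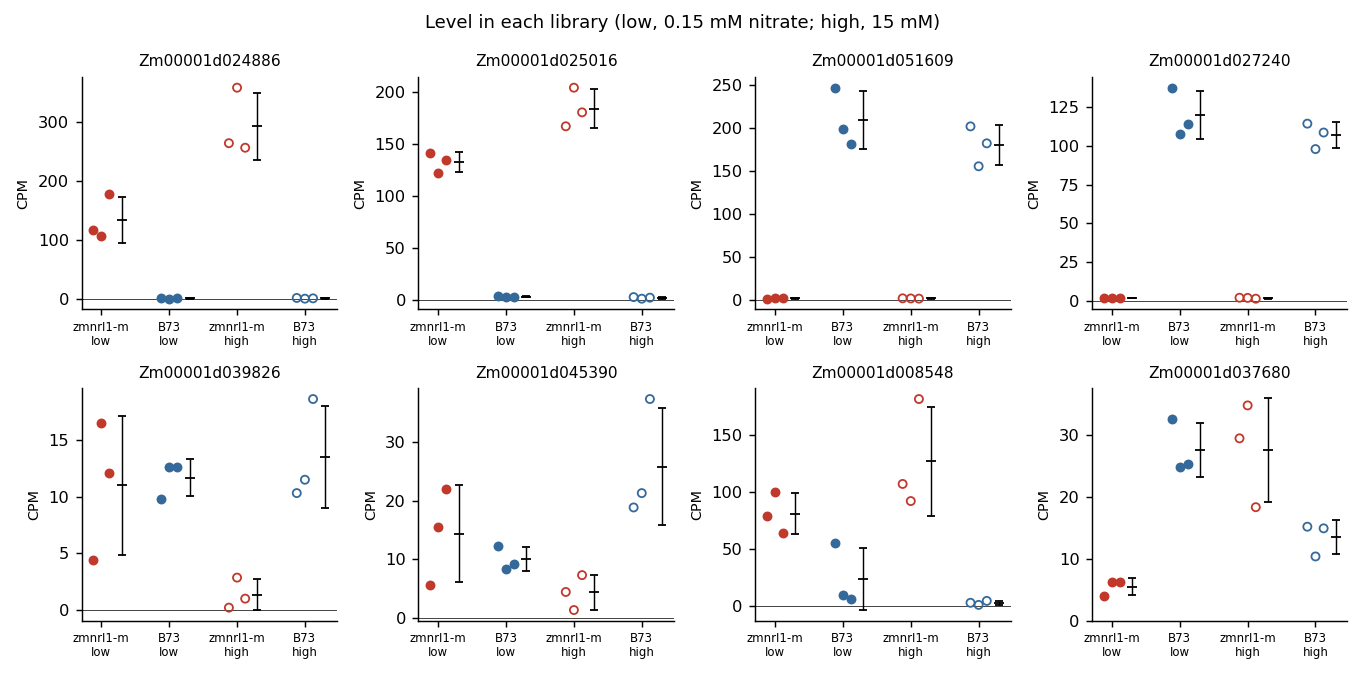
Level in CPM (vertical, linear scale) of 8 genes in each zmnrl1-m (red) and B73 (blue) library at 0.15 mM nitrate (filled) and 15 mM nitrate (open), with the mean and SD of the 3 libraries in black. The upper row shows the largest rises and falls in zmnrl1-m at low nitrate among genes with at least 1 CPM in both genotypes, and the lower row genes whose difference from B73 changed with nitrate, such as Zm00001d037680.

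Some genes had counts in 1 genotype only. All reads were handled on the build B73 RefGen_v4, and the background of zmnrl1-m is not given. The part of alignment to a B73 reference in these counts was not tested. At low nitrate 131 genes had a mean of at least 1 CPM in zmnrl1-m and 0 counts in all 3 B73 libraries, and 121 genes had 0 counts in all 3 zmnrl1-m libraries and at least 1 CPM in B73. The genes without counts in B73 were mostly low in zmnrl1-m, with a median of 2.03 CPM and 28 at 5 CPM or more. Those without counts in zmnrl1-m were higher in B73, with a median of 6.05 CPM and 66 at 5 CPM or more. All 131 and 120 of the 121 genes had passed the filter on low counts. With up to 3 counts allowed over the 3 libraries of the lower genotype, the numbers were 282 and 220. The first count was 215 without B73 replicate 1. B73 replicates 1 and 3 had lower total counts than any zmnrl1-m library at low nitrate, and the part of depth in these numbers was not tested.

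The most abundant gene of each set averaged 113 CPM in zmnrl1-m and 112 CPM in B73. Zm00001d035590 stood at 125, 119 and 93.2 CPM in zmnrl1-m and had 0 counts in B73, so it was at least 3079-fold higher against a floor of 3 counts over the 3 B73 libraries. Zm00001d030287 stood at 27.7, 28.0 and 19.7 CPM in zmnrl1-m and had 0 counts in B73, at least 688-fold higher. In ZmNRL1-OE at low nitrate these genes had just 4 counts and 1 count over 3 libraries.

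In the other direction, Zm00001d018046 had 0 counts in zmnrl1-m, against 135, 105 and 97.0 CPM in B73, at least 3535-fold lower. Zm00001d024744 had 0 counts in zmnrl1-m, against 77.5, 86.5 and 90.7 CPM in B73, at least 2731-fold lower. ZmNRL1-OE separated this pair, with 74.9 ± 3.39 CPM of Zm00001d018046 (SD, n = 3) but 4 counts of Zm00001d024744 over its 3 low-nitrate libraries. At high nitrate Zm00001d035590 had 11085 counts in zmnrl1-m and 3 in B73, a ratio of 4815 after scaling for library size, with an exact binomial 95% interval of 1647 to 23354. Zm00001d018046 had 1 count in zmnrl1-m and 10769 in B73 at high nitrate, a ratio of B73 over zmnrl1-m of 8263 with an interval of 1483 to 326418. Zm00001d030287 and Zm00001d024744 had 0 counts in the same genotype at high nitrate as at low nitrate. Such bounds and intervals cover counting error only.

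The libraries at high nitrate, which had no part in choosing these genes, held nearly the same states. Of the 131 genes without counts in B73, 121 had at least 1 CPM in zmnrl1-m at high nitrate, and 99 again had 0 counts in B73, where the other 32 reached at most 0.0854 CPM. Of the 121 genes without counts in zmnrl1-m, 90 again had 0 counts in zmnrl1-m at high nitrate, the other 31 reached at most 0.0664 CPM, and 113 had at least 1 CPM in B73. The ZmNRL1-OE line divided both sets. At low nitrate it had at least 1 CPM in 29 of the 131 genes and 0 counts in 54, and at least 1 CPM in 81 of the 121 genes and 0 counts in 22.

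Gene length was read for both sets as a description, with no test. The gene length implied by the ratio of deposited counts to FPKM had a median of 875 bases in the 131 genes and 1413 bases in the 121 genes, against 1747 bases over all tested genes. The quartiles were 646 and 1336 bases in the 131 genes, and 773 and 2765 bases in the 121 genes. Tested genes in the same ranges of level had medians of 1321 and 1524 bases. In the order of the deposited table nearly all genes of the first set stood alone, and fewer of the second set did. Among tested genes, 129 of the first set had no neighbour of the same set, and 1 pair was adjacent. The second had 105 single genes among its 120 tested genes, with 6 pairs and 1 run of 3. Whether this exceeds an even scatter was not tested.

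**Figure D3:**
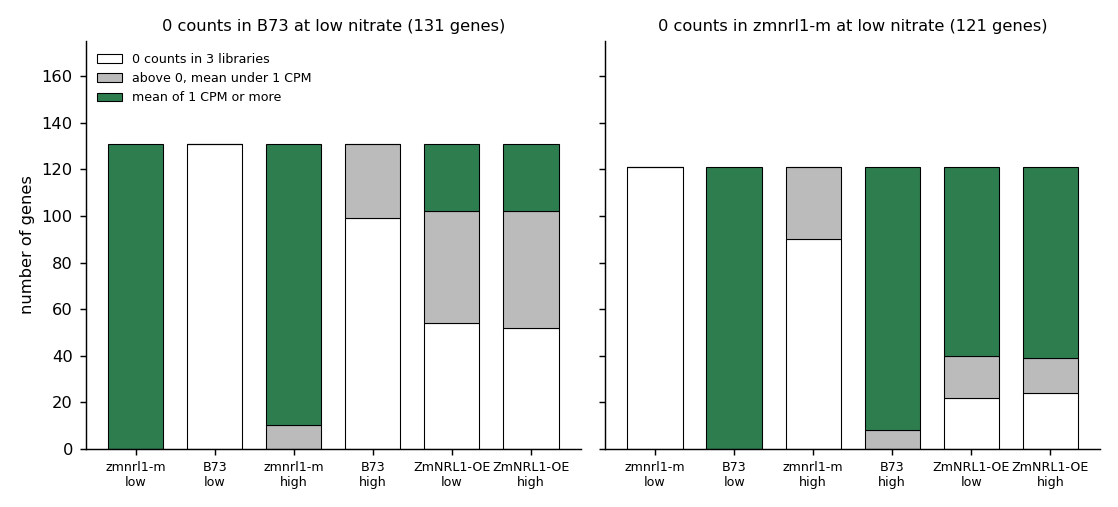
Number of genes (vertical) with 0 counts in all 3 libraries (white), a mean above 0 and under 1 CPM (grey) or a mean of 1 CPM or more (green) in each of the 6 groups. The left panel shows the 131 genes without counts in B73 at low nitrate and the right panel the 121 genes without counts in zmnrl1-m, and either state was largely kept at high nitrate.

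The difference between zmnrl1-m and B73 was then read at 15 mM nitrate, in libraries that the low-nitrate comparison does not use. At high nitrate 42.4% of the tested genes were called, 21.6% higher and 20.8% lower in zmnrl1-m. Of the 12143 genes called at low nitrate, 10220 (84.2%) had the same sign at high nitrate and 7103 (58.5%) were also called there in the same direction, while 211 were called in the opposite direction. Over all tested genes 67.9% had the same sign, and 9786 (36.1%) were called at high nitrate in the direction of their low-nitrate sign. Those shares include the genes called at low nitrate.

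The larger the difference at low nitrate, the more often it was also called at high nitrate. Among called genes under 1.5-fold apart, 36.1% were called in the same direction at high nitrate. The share over all tested genes was also 36.1%, but it counts genes called with larger differences and is no measure for uncalled genes. Among called genes, the share was 54.6% for differences of 1.5 to 2-fold, 68.6% for 2 to 4-fold and 93.0% for 4-fold or more. The 1324 genes at least 4-fold higher in zmnrl1-m had a median log2 difference of 4.71 at low and 4.61 at high nitrate, and the 1214 genes at least 4-fold lower had -3.79 and -3.58. Across the 27134 genes the log2 differences at the 2 nitrate levels correlated with Pearson's r = 0.927 and Spearman's rho = 0.637, and across the 21575 genes with at least 1 CPM in all 4 groups with r = 0.741 and rho = 0.526. These are descriptions across genes, and the 2 comparisons share no library but were sequenced and scaled together.

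**Figure D4:**
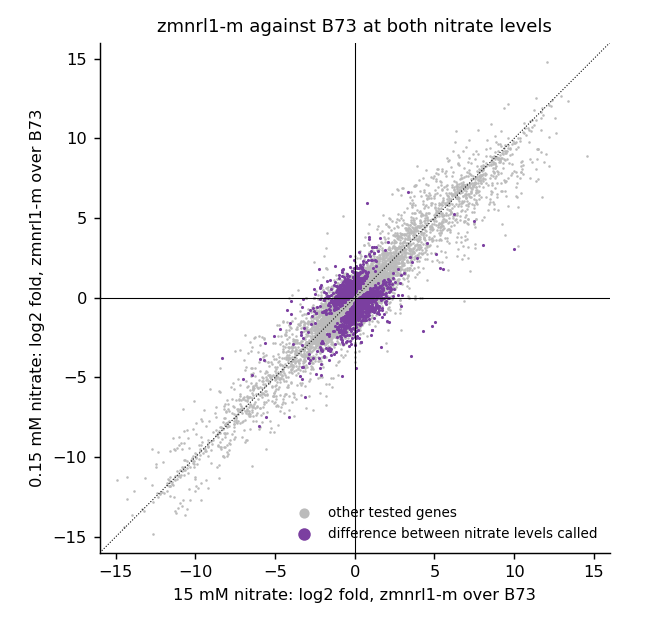
Each point is a tested gene, placed by its log2 fold difference of zmnrl1-m over B73 at 15 mM nitrate (horizontal) and at 0.15 mM nitrate (vertical), with equal values on the dotted line. The 2424 genes whose difference changed with nitrate (purple) gather near the centre, while genes far apart between the genotypes lie along the line.

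A smaller set of genes differed between the genotypes to an extent that depended on nitrate. Tested as an interaction, the difference of zmnrl1-m from B73 changed between low and high nitrate in 2424 genes (8.93% of those tested), with a higher log2 difference at low nitrate in 1041 (3.84%) and a lower one in 1383 (5.10%). Of the genes called at low nitrate 1648 (13.6%) were in this set. It held 498 (10.1%) of the 4927 genes at least 2-fold apart at low nitrate. Among those, 267 were not called between the genotypes at high nitrate, 88 of them higher and 179 lower in zmnrl1-m at low nitrate. Of the 2424 genes, 1097 were called between the genotypes at low nitrate alone, 754 at high nitrate alone, 340 at both in the same direction, 211 at both in opposite directions and 22 at neither. The count of 2424 rested on single libraries. When a zmnrl1-m library was left out, it was 562 for replicate 3 at low nitrate, 636 for replicate 2 at high nitrate and 930 for replicate 3 at high nitrate. When a B73 library was left out, it was 754 for replicate 2 and 707 for replicate 3 at low nitrate, and 735 for replicate 2 and 921 for replicate 3 at high nitrate. Leaving out a replicate 1 raised it, to 2621 (zmnrl1-m) and 3348 (B73) at low nitrate. At high nitrate this gave 3130 (zmnrl1-m) and 2982 (B73). Without zmnrl1-m replicate 2 at low nitrate it was 2202.

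Zm00001d037680 was lower in zmnrl1-m at low nitrate and higher at high nitrate. At low nitrate it stood at 3.93, 6.28 and 6.20 CPM in zmnrl1-m, against 32.6, 24.7 and 25.3 CPM in B73. At high nitrate it stood at 29.4, 34.7 and 18.3 CPM in zmnrl1-m, against 15.1, 10.3 and 14.9 CPM in B73. The genotypes did not overlap at either level. The log2 difference was -2.32 ± 0.24 at low and 1.03 ± 0.22 at high nitrate (SE), and the change between them was -3.36 ± 0.32 (edgeR adjusted p = 0.000341). In ZmNRL1-OE at low nitrate it stood at 72.2 ± 7.09 CPM (SD, n = 3).

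Zm00001d008548 was higher in zmnrl1-m at both levels, by less at low nitrate. At low nitrate it stood at 78.8, 99.6 and 64.2 CPM in zmnrl1-m, against 55.2, 9.73 and 6.28 CPM in B73, where replicate 1 was far above the other two. At high nitrate it stood at 107, 91.9 and 181 CPM in zmnrl1-m, against 2.79, 0.952 and 4.46 CPM in B73. The change in log2 difference was -3.74 ± 0.87 (SE; edgeR adjusted p = 0.0221), and -2.21 without B73 low-nitrate replicate 1. The call was lost when replicate 3 of zmnrl1-m was left out at either nitrate level, and without B73 replicate 2 at high nitrate (adjusted p from 0.00343 to 0.0619 over 20 alternatives with edgeR, DESeq2 or limma). The low-nitrate difference alone was 1.79 ± 0.58 (SE; edgeR adjusted p = 0.019) and 3.32 without B73 replicate 1, and it was not called without zmnrl1-m replicate 2 or B73 replicates 2 or 3 (values of 1.61, 1.40 and 1.34). With just the 6 low-nitrate libraries in the fit its edgeR adjusted p was 0.0601.

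Zm00001d045390 and Zm00001d039826 overlapped with B73 at low nitrate and lay below it at high nitrate. Zm00001d045390 stood at 5.57, 15.6 and 22.0 CPM in zmnrl1-m at low nitrate, against 12.3, 8.44 and 9.25 CPM in B73. At high nitrate it stood at 4.46, 1.39 and 7.33 CPM in zmnrl1-m, against 18.8, 21.3 and 37.3 CPM in B73. The genotypes overlapped at low nitrate alone, and the change in log2 difference was 3.12 ± 0.67 (SE; edgeR adjusted p = 0.0164).

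Zm00001d039826 stood at 4.37, 16.5 and 12.1 CPM in zmnrl1-m at low nitrate, against 9.75, 12.6 and 12.6 CPM in B73. At high nitrate it stood at 0.186, 2.84 and 0.980 CPM in zmnrl1-m, against 10.3, 11.5 and 18.6 CPM in B73. The groups overlapped at low nitrate and were apart at high nitrate. The change in log2 difference was 3.19 ± 0.76 (SE; edgeR adjusted p = 0.0234). It was 4.52 without high-nitrate replicate 2 of zmnrl1-m. The call was lost when replicate 3 of either genotype was left out at either nitrate level, and without B73 replicate 2 at low nitrate (adjusted p from 0.0141 to 0.0588 over 20 alternatives with edgeR, DESeq2 or limma).

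Genes that respond to nitrate were examined through ZmNRL1-OE, whose libraries are in neither genotype of the comparison. In ZmNRL1-OE 2943 genes (10.8% of those tested) were called as raised by low nitrate and 3555 (13.1%) as lowered. At low nitrate zmnrl1-m was called lower than B73 in 856 of the raised genes (29.1%) and higher in 696 (23.6%). Of all tested genes 22.8% were called lower and 22.0% higher. Among the lowered genes zmnrl1-m was called higher than B73 in 942 (26.5%) and lower in 459 (12.9%). The median log2 difference was -0.07 over the raised and 0.14 over the lowered genes, against 0.00 over all tested genes. At high nitrate the medians had the opposite signs, 0.17 and -0.19. There zmnrl1-m was called higher than B73 in 991 of the raised genes (33.7%) and lower in 454 (15.4%). It was called higher in 301 (8.47%) and lower in 1126 (31.7%) of the lowered genes. The median response of the raised genes to low against high nitrate was 0.24 in zmnrl1-m and 0.50 in B73 on the log2 scale, and that of the lowered genes was 0.04 in zmnrl1-m and -0.31 in B73. The change of the genotype difference with nitrate was called as positive in 92 and as negative in 385 of the 2943 raised genes. It was called as positive in 425 and as negative in 86 of the 3555 lowered genes. Over all tested genes it was called as positive in 3.84% and as negative in 5.10%. Those counts come from the test of 2424 genes that rested on single libraries.

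At low nitrate the libraries of the genotypes overlapped in both lists, and at high nitrate they did not. The median level of the raised genes, each centred on its mean over the 12 zmnrl1-m and B73 libraries, was 0.20, 0.18 and 0.06 log2 CPM in zmnrl1-m at low nitrate, against 0.19, 0.23 and 0.27 in B73. For the lowered genes it was -0.08, -0.00 and 0.10 log2 CPM in zmnrl1-m, against -0.08, -0.15 and -0.19 in B73. In each list zmnrl1-m replicate 1 lay within the range of B73. At high nitrate the raised genes stood at -0.17, -0.06 and -0.10 log2 CPM in zmnrl1-m, against -0.21, -0.37 and -0.22 in B73. The lowered genes stood at 0.07, -0.11 and -0.03 log2 CPM in zmnrl1-m at high nitrate, against 0.11, 0.30 and 0.11 in B73. Without zmnrl1-m replicate 3 the median log2 difference at low nitrate was -0.03 over the raised and 0.09 over the lowered genes. Over genes changed by at least 2-fold in ZmNRL1-OE the signs at low nitrate turned. The median log2 difference of zmnrl1-m from B73 at low nitrate was 0.05 over the 881 genes raised that far (3.25% of those tested) and -0.15 over the 361 lowered (1.33%). At high nitrate these medians were 0.20 and -0.21, with the same signs as at low nitrate. Of the 881 genes 30.9% were called higher and 25.7% lower in zmnrl1-m at low nitrate. Of the 361 genes 20.2% were called higher and 32.4% lower. The median level of these 361 genes, centred likewise, at low nitrate was -0.58, -0.56 and -0.63 log2 CPM in zmnrl1-m, against -0.48, -0.35 and -0.47 in B73, without overlap. For the 881 genes it was 0.53, 0.58 and 0.42 log2 CPM in zmnrl1-m, against 0.51, 0.41 and 0.56 in B73, and the genotypes overlapped. The median responses to low nitrate lay closer together than in the full lists. They were 0.90 in zmnrl1-m and 1.07 in B73 over the 881 raised genes, and -0.91 in zmnrl1-m and -0.93 in B73 over the 361 lowered genes. The change of the genotype difference with nitrate was called as positive in 56 and as negative in 60 of the 881 genes. It was called as positive in 20 and as negative in 38 of the 361 genes. The shares over all tested genes were 3.84% positive and 5.10% negative.

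The called genes were not evenly spread over the identifier numbers, which in this annotation run along the chromosomes. Identifiers were taken in 516 blocks of 100 numbers with at least 20 tested genes each. The share of tested genes called per block had a median of 44.8% and ranged from 17.0% to 77.3%. The share called and at least 2-fold apart had a median of 18.2% and ranged from 0% to 46.2%. Neighbouring blocks had like shares, with r = 0.506 over 506 pairs of neighbours, and the share at low nitrate correlated with that at high nitrate with r = 0.861 over 516 blocks. Both are descriptions over blocks that share the same libraries. The share fell with the median level of a block (r = -0.332).

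Stretches with few large differences stood out in the order of the deposited table. In 11 stretches of at least 3 neighbouring blocks, every block had under 10% of its tested genes called and at least 2-fold apart, a limit set after the data had been examined. They held 2625 tested genes (9.69% of all), of which 172 (6.55%) were at least 2-fold apart. At high nitrate the share in these stretches lay between 3.80% and 9.32%, against 17.4% of all tested genes. The longest covered 10 blocks, identifier numbers 14400 to 15399, with 35 of 522 tested genes at least 2-fold apart. In other places differences were dense, and 54 blocks had more than 30% of their genes at least 2-fold apart. Blocks in the stretches had a median level of 4.15 log2 CPM, against 3.89 over all blocks, and the part of level in their lower share was not tested.

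**Figure D5:**
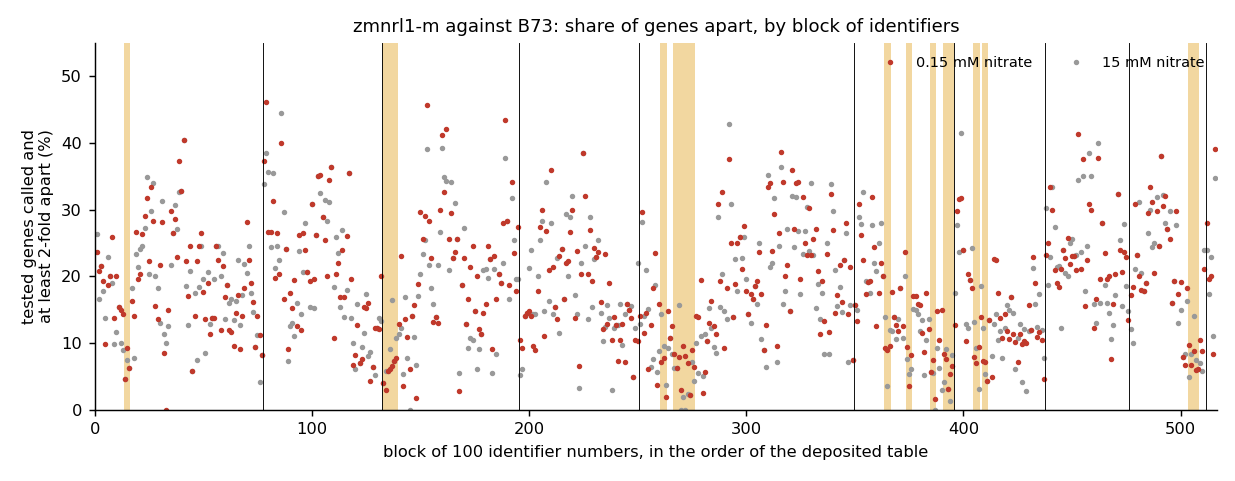
Share of tested genes called between zmnrl1-m and B73 and at least 2-fold apart (vertical, percent) in 516 blocks of 100 identifier numbers, in the order of the deposited table (horizontal), at 0.15 mM (red) and 15 mM nitrate (grey). Vertical lines separate runs of rising numbers and shading marks the 11 stretches with under 10% in every block at 0.15 mM, where the grey points were mostly low too.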

How the data were processed

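Root mRNA of 18 maize samples was sequenced, with 3 libraries in each of 6 groups, and the 6 low-nitrate libraries of zmnrl1-m and B73 are the subject here. The authors deposited raw read counts per gene and FPKM values, which they had normalised for gene length and library size. Per the submitters' processing notes, reads were handled with HISAT2 2.2.1, featureCounts 2.0.1, bcl2fastq 2.19.1 and Trim Galore 1.18, on the build B73 RefGen_v4. The sources used here state neither the strand setting nor the handling of multi-mapping reads, so counts of near-identical, overlapping or antisense genes are uncertain.

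Genes were kept with filterByExpr (minimum count 10), which left 27134 genes with 99.97% of the counts. One model with a mean per group was fitted to the 18 libraries with TMM scaling and the quasi-likelihood test of edgeR 4.0.16 in R 4.3.3 (12 residual degrees of freedom), with Benjamini-Hochberg adjustment over all genes tested. A gene is called at an adjusted p under 0.05. SE is the log2 fold change over the square root of F. The fits were tested on simulated data. limma 3.58.1 was run on log2(FPKM + 1) and log2(FPKM + 0.1), and DESeq2 1.42.0 on counts. Folds against 0 counts are bounds that put 3 counts in place of 0, summed over a group.

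Named genes are, in each direction, the 2 called genes with the largest fold and no overlap of libraries among those with at least 1 CPM in both genotypes and 5 CPM in 1, the 2 most abundant genes with 0 counts in the other genotype, and the 2 with the largest interaction among genes with at least 1 CPM in all 4 groups and 5 CPM in 1. The comparison, the lists and the rules were chosen with earlier results of these data known. The 27 gene lists by name were not used, since no identifier could be matched. No low-nitrate library of zmnrl1-m or B73 was taken for a duplicate, since chi-square per gene was 11.6 to 23.6 between pairs within these groups. The other groups were not checked in this way.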

Additional observations from a re-analysis of the deposited data

Results flagged for a closer look

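The difference of zmnrl1-m from B73 was not the same at low and high nitrate in 2424 genes, by the interaction test of edgeR. The 4 genes named for this were Zm00001d039826, with a change in log2 difference of 3.19, Zm00001d045390 with 3.12, Zm00001d008548 with -3.74 and Zm00001d037680 with -3.36. Of these, Zm00001d045390 and Zm00001d037680 were called in all 20 alternative settings, which included leaving out each of the 12 libraries. The highest adjusted p over these settings with edgeR, DESeq2 or limma was 0.0498 for Zm00001d045390, just under the limit, and 0.0019 for Zm00001d037680. In all, 7876 genes had an unadjusted p under 0.05 for this change.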

How the results depend on the processing

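The counts of genes called, higher and lower at low nitrate stayed within 1.5 times their value in every alternative run, which were other scalings, filters, tests, fits, and each library left out. Genes called ranged from 9821 to 11269 with 1 library left out, and numbered 12454 by DESeq2 and 10867 with 6 libraries in the fit. The count at least 2-fold apart was 2754 on log2(FPKM + 1), where the pseudocount shrinks low genes. For the change between nitrate levels, DESeq2 called 4157 genes, and leaving out 1 library gave 562 to 3348. Genes without counts in zmnrl1-m numbered 66 at a minimum of 5 CPM and 220 with up to 3 counts allowed. Genes without counts in B73 numbered 226 at a minimum of 0.5 CPM, 28 at 5 CPM and 282 with up to 3 counts, and 126 to 215 with 1 library left out. The median difference over nitrate-response genes turned to 0.051 (raised) and -0.15 (lowered) with a 2-fold response required. The median share per block was 18.2% with a 2-fold difference required, and 45.6% in blocks of 200 numbers. The low-nitrate difference of Zm00001d039826, not called, was -0.08, turned to 0.29 without zmnrl1-m replicate 1, and lay between -0.50 and 0.29 over the libraries left out. Beyond the effect of the definitions themselves, the cause was not tested. Of 272 values of named genes under alternatives, 259 kept their direction and side of the threshold and 12 lost their call. The libraries of the 2 genotypes share replicate numbers, but their deviations correlated with r = -0.02, -0.04 and 0.04, so the numbers were not taken as pairs. With the replicate number as a block 11612 genes were called in the 18 libraries and 9494 in the 6, and 1569 for the change between nitrate levels.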
